A study of Mus musculus with 8 samples.

Results

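Collagen genes were followed in the retinas of Rbfox2-/- and control mice. They were taken by symbol, as every gene named Col, a number, a and a number in the deposited table, which gave 44 of its 17500 genes. The rule itself uses no measured value. The 4 mice labelled Rbfox2 KD carried Rbfox2 fl/fl with a tamoxifen-inducible Cre that is not limited to the retina, and are called Rbfox2-/- here. By the study's methods the 4 controls were age-matched heterozygous Rbfox2 fl/+ mice. All 8 were C57BL/6J mice of 6 months, with the whole retina taken as 1 library per mouse. By the methods the Rbfox2-/- mice were taken 4 months after tamoxifen induction, whereas the labels name a tamoxifen period of 4 months for every sample, controls included. In an RNA-seq library of a whole tissue, fewer cells of a type and less RNA per cell cannot be told apart.

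Collagens are secreted or membrane-bound proteins built from chains that wind into a triple helix. Fibrillar collagens assemble into the fibrils of sclera, cornea and vitreous. Type IV collagens form the networks of basement membranes, which in the eye line the inner limiting membrane, the retinal vessels and Bruch's membrane, and types XV and XVIII sit at the edge of these membranes. The remaining types coat fibrils (the FACIT group, such as type IX of the vitreous), form beaded filaments (type VI) or span the plasma membrane (types XIII, XVII, XXIII and XXV). Of the 44 genes, 11 were fibrillar, 8 belonged to basement membranes and 25 to other classes (9 FACIT, 8 beaded filament, anchoring and related, 4 transmembrane, 4 short-chain and remaining).

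The 6 type IV genes lie head to head in pairs, so that both genes of a pair start from 1 short stretch of DNA and are read away from each other. These stretches are shown because the members of a pair are compared with each other below, together with the region before Col18a1, which spans a wide range of levels among the mice. Letters are from RefSeq on GRCm38.p6, 5′ to 3′. Capitals mark 3 short promoter motifs, each searched on both strands. The GC box was searched as GGGCGG, the TATA box as TATAAA, and the CCAAT box by the letters of its name. Col4a1 (minus strand) and Col4a2 (plus strand) share their first 22 bases at chr8:11312805-11312826, given on the plus strand. Col4a4 (minus) and Col4a3 (plus) start 71 bases apart, and these bases are chr1:82586850-82586920 on the plus strand. Col4a6 (minus) and Col4a5 (plus) start 1308 bases apart on the X chromosome. Before Col4a6 lies chrX:141474077-141474326 on the minus strand, before Col4a5 chrX:141475169-141475384 on the plus strand, and before Col18a1 chr10:77166549-77166780 on the minus strand, each outside annotated exons.
Col4a1-Col4a2: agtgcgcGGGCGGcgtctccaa
Col4a4-Col4a3: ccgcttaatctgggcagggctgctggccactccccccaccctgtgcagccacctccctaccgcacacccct
Col4a6: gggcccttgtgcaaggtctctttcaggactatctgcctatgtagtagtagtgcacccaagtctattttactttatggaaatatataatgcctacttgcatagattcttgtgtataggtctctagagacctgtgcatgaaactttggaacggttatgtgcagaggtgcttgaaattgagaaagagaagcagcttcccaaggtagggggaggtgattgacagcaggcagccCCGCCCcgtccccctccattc
Col4a5: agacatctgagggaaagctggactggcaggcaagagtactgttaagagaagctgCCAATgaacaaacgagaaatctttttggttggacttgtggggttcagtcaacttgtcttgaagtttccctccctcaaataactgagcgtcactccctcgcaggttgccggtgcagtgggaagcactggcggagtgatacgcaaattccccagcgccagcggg
Col18a1: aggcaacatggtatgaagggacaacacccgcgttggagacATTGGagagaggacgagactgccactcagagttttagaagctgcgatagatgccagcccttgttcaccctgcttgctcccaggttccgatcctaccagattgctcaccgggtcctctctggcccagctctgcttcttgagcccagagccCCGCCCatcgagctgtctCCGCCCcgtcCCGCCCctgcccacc
None of these stretches held a TATA box. RefSeq windows of 300 bases (250 before and 50 after the start) were at hand for 35 of the collagen genes, as 38 windows. A GC box was in 23 of the 38 (60.5%), beside 35.7% of 32851 windows of all genes. A CCAAT box was in 13 (34.2%, beside 37.4%) and a TATA box in 5 (13.2%, beside 13.6%). These counts are descriptions and carry no test.

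The libraries held between 160630226 and 211283591 counts on genes, so that 3 counts are worth at most 0.0189 CPM (counts scaled to a library total of 1000000). Rbfox2 had 144 to 157 CPM in the controls and 53.6 to 59.4 CPM in the Rbfox2-/- mice (log2 fold change -1.41, SE 0.05, adjusted p = 5.51e-07 by edgeR's quasi-likelihood test), as the labels state. Markers of retinal neurons summed to between 53978 and 60852 CPM and those of Muller glia to between 4768 and 5688 CPM. The Rbfox2-/- mice M901 and M902 stood apart: they lay together at one end of the first principal component, which held 40.5% of the variance, and were the 2 libraries with high Xist, the RNA of the inactive X chromosome (1440 and 1739 CPM, against 1.71 to 2.22 CPM in the other 6). No control had high Xist and the labels give no sex, so within the Rbfox2-/- group whatever Xist marks and the separation of these 2 mice cannot be told apart. Where the fold change of a single gene low in both mice is given, it is given with and without them.

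All 44 collagen genes passed the filter on low counts, the lowest count of any being 15 (Col10a1 in the control M898). Levels between genes were compared per length, as the deposited FPKM (fragments scaled by the length of the gene model and by the library's total). In the controls they ran from 0.038 FPKM for Col10a1, known from hypertrophic cartilage, to 26.4 ± 5.28 FPKM (SD, n = 4) for Col6a1, a chain of the beaded filaments. Below Col6a1 came Col23a1, a transmembrane collagen, at 21.8 ± 2.79 FPKM, Col18a1, whose end fragment is endostatin, at 19.3 ± 5.77 FPKM, Col2a1, the main fibrillar collagen of the vitreous, at 17.9 ± 2.37 FPKM, and Col9a1, which coats type II fibrils, at 16.2 ± 2.35 FPKM (each SD, n = 4). Neighbours in this order differed by less than the larger of their SDs between mice. These means alone do not settle the order of neighbours, which was not compared within each mouse. Of all 44 genes, 29 were above 1 FPKM and 5 under 0.1 FPKM in the controls. The main fibrillar chains of skin and tendon were low, with Col1a2 at 2.12, Col1a1 at 0.737 and Col3a1 at 0.104 FPKM. Col2a1 and Col11a2 (5.25 FPKM), a chain of type XI, were among the 3 highest fibrillar genes.

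**Figure D1:**
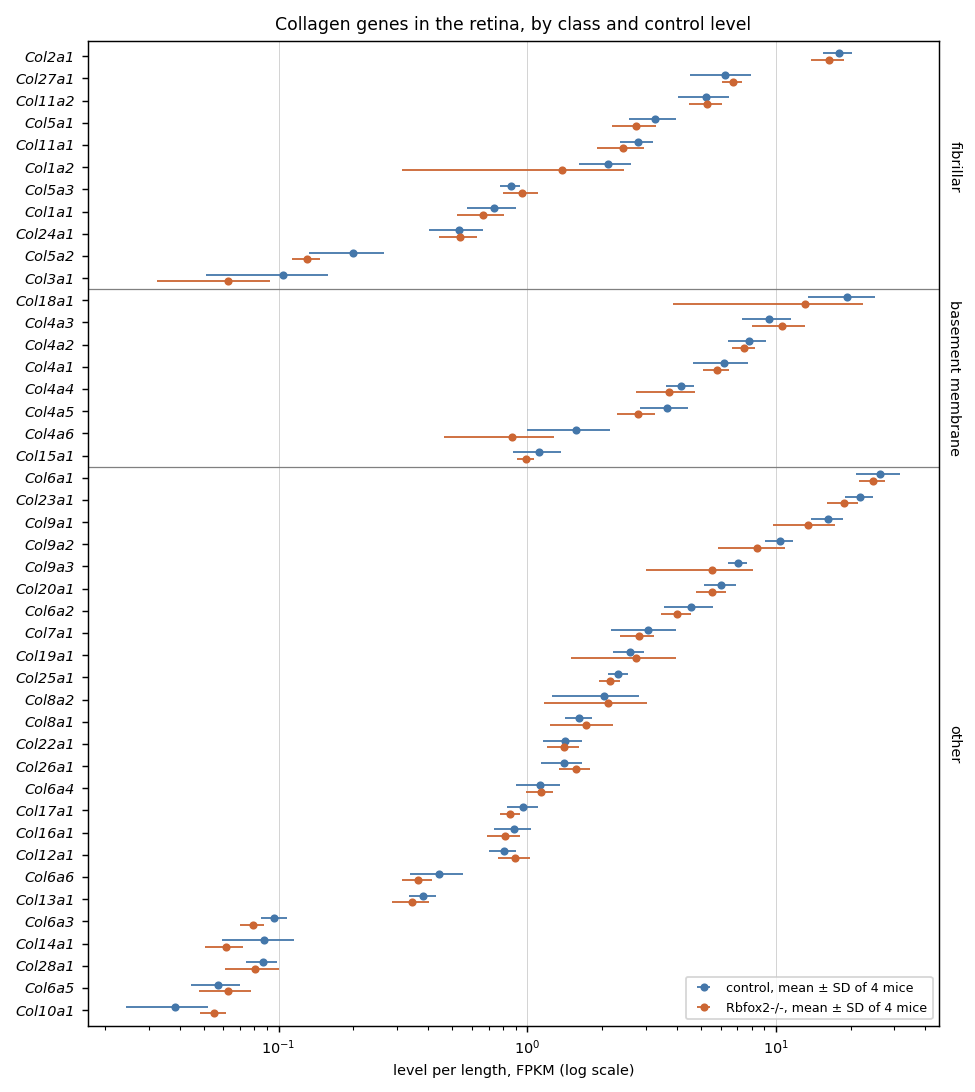
Mean level per length (FPKM, log axis) of 44 collagen genes in the controls (blue) and the Rbfox2-/- mice (orange), with bars of 1 SD over 4 mice, in 3 classes ordered by control level. Col6a1 is at the top of the range with 26.4 FPKM and Col10a1 at the bottom with 0.038 FPKM, and the bars of both groups overlap for most genes, Col1a2 and Col18a1 having the wide bars of Rbfox2-/- mice.

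Summed over the 44 genes, collagen RNA came to 186, 250, 183 and 200 FPKM in the controls (in the order M833, M894, M896, M898, kept for controls throughout), and to 204, 142, 168 and 215 FPKM in the Rbfox2-/- mice M893, M901, M902 and M909. The means were 205 ± 31.2 and 182 ± 33.2 FPKM (SD, n = 4), and the groups overlapped, with M901 and M902 below every other mouse. The classes took alike shares of this sum in both groups. Fibrillar genes made up 19.5% ± 0.899 in controls and 20.5% ± 0.787 in Rbfox2-/- mice, basement membrane genes 25.9% ± 1.69 and 24.6% ± 2.94, and the others 54.7% ± 1.29 and 54.9% ± 2.20 (SD, n = 4).

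Across genotypes, no collagen gene passed the test. At a false discovery rate under 0.05, 0 of the 44 passed edgeR's quasi-likelihood test, which called 0.0655% of the 16797 genes tested, and 0 passed by DESeq2, which called 2.74%. The lowest adjusted p was 0.342 (edgeR). At an unadjusted p under 0.05, 3 of the 44 were lower (Col4a6, Col4a5 and Col5a2), which is 6.82% beside 6.87% of all genes tested, and 0 were higher, beside 6.42% of all genes tested. The 4 Rbfox2-/- values lay apart from the 4 control values for 0 of the 44 genes, beside 7.03% of all genes tested. The 95% interval of the log2 fold change stayed within 1 on either side of 0 for 37 of the 44 genes. Smaller differences were not resolved with 4 mice a group. The count of 3 lower genes moved with single mice. It was 6 without M833 and 6 without M909, 1 without M898 and 1 without M901, and 0 without M894 and 0 without M902. The genes counted changed as well: the 1 left without M898 was none of Col4a6, Col4a5 and Col5a2. The count of higher genes became 2 without M894.

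The fitted values leaned downward. Of the 44 genes, 30 had a negative log2 fold change and 14 a positive one, with a median of -0.11, beside 0.00 over all genes tested, 49.3% of which were negative. Medians were -0.14 for fibrillar genes (7 of 11 negative), -0.15 for basement membrane genes (7 of 8) and -0.10 for the others (16 of 25). They moved with single mice: in the same order they were -0.02, -0.10 and -0.04 without the control M894. Without M901 they were -0.02, -0.09 and -0.04, and without M909 -0.22, -0.25 and -0.15. Without M901 and M902 the lean was gone: 17 were negative and 27 positive, the medians were 0.07, -0.03 and 0.03, and 0 genes had an unadjusted p under 0.05, beside 2.46% of all genes lower and 3.55% higher in the same fit (lowest adjusted p of a collagen gene 0.857 by edgeR).

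**Figure D2:**
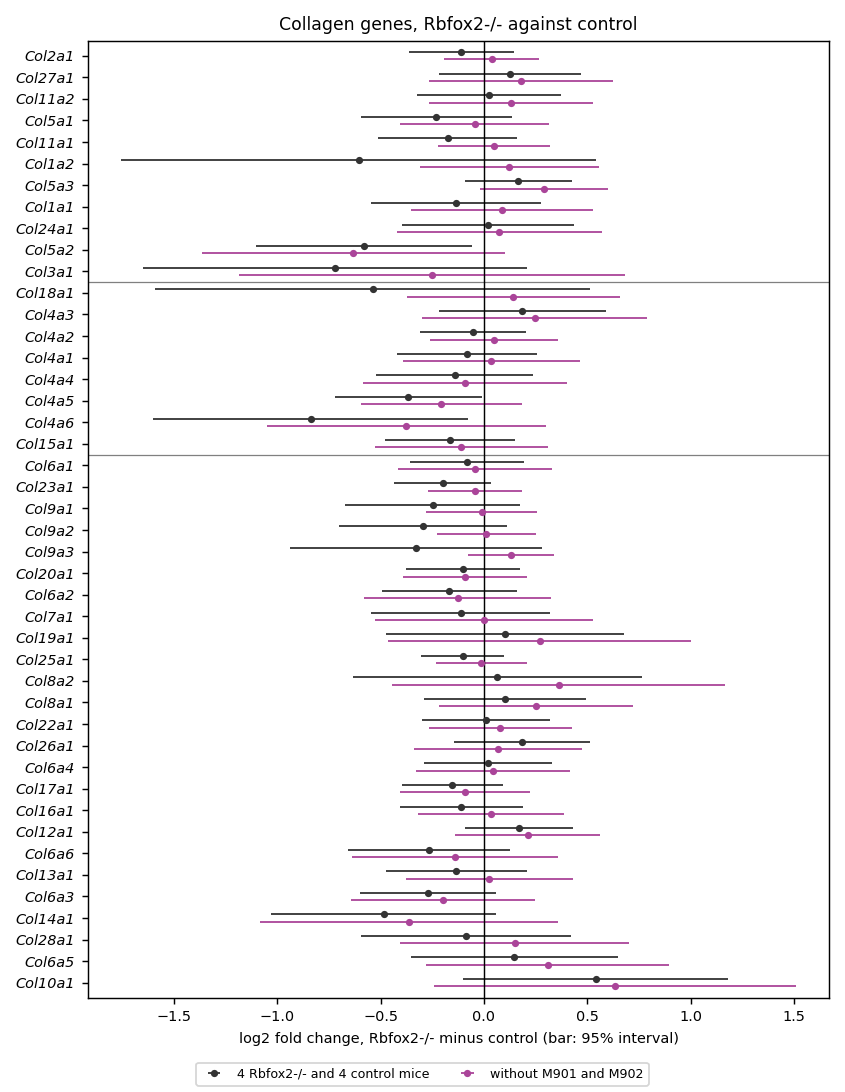
Log2 fold change of each collagen gene, Rbfox2-/- minus control, with its 95% interval, over all 8 mice (black) and without M901 and M902 (purple), with the 3 classes separated by lines. Over all mice 30 of 44 points lie left of 0 and without M901 and M902 17 do, and the intervals of Col4a6, Col4a5 and Col5a2 exclude 0 only over all mice.

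Collagen genes varied widely from mouse to mouse. The ratio of the highest to the lowest of the 8 mice had a median of 1.81 over the 44 genes, beside 1.24 over all genes tested, and reached 7.08 for Col1a2, a chain of type I fibrils. The control M894 was the highest mouse for 24 of the 44 genes (54.5%, beside 11.4% of all genes tested), and M901 or M902 was the lowest for 24 (54.5%, beside 27.5%). Both M901 and M902 lay below all 6 other mice for 13 of the 44 (29.5%, beside 9.35% of all genes tested, with no test). These were 4 fibrillar genes (Col1a2, Col3a1, Col5a1, Col11a1), 3 of basement membranes (Col18a1, Col4a6, Col4a5) and 6 others (Col9a1, Col9a2, Col9a3, Col23a1, Col13a1, Col16a1). Col1a2, Col11a1, Col9a2, Col9a3, Col13a1 and Col16a1 are named because of these values, which were seen first, as is every gene described below that lies outside the naming rule given with the methods.

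**Figure D3:**
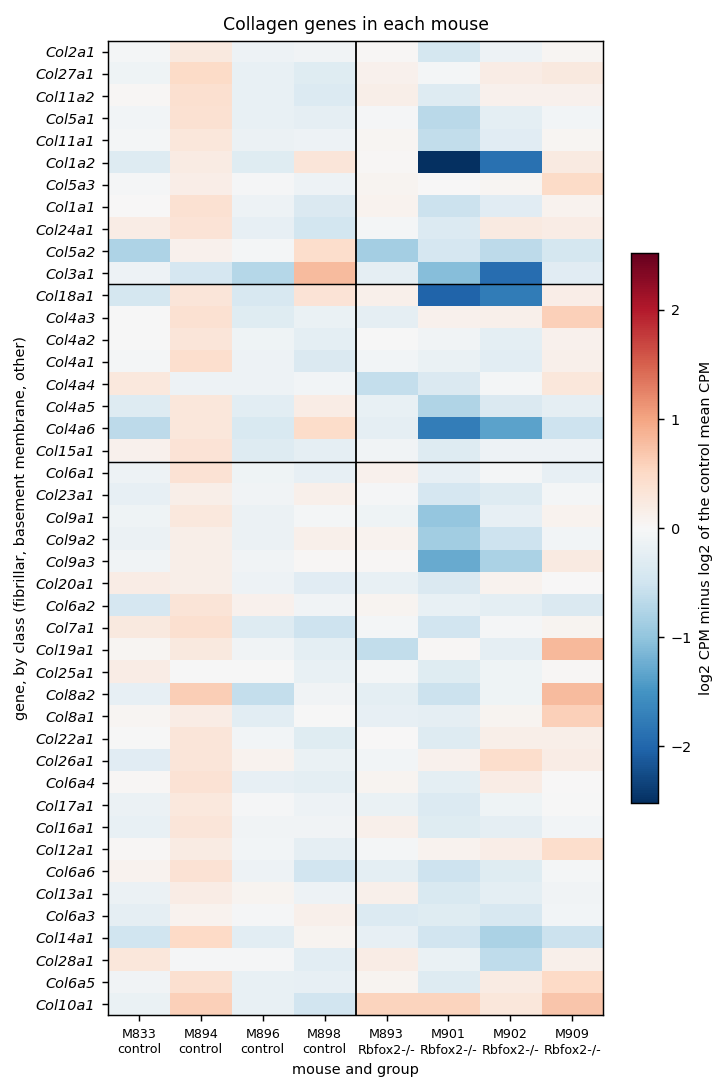
Level of each collagen gene in each mouse as log2 CPM minus log2 of the control mean CPM (red above, blue below), with genes in rows by class and the 4 control and 4 Rbfox2-/- mice in columns. M901 and M902 are blue in 13 genes where both lie below the other 6 mice, with Col1a2, Col18a1 and Col3a1 among the deep blue rows, and M894 is pale red in most rows.

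Among the fibrillar genes, Col1a2 had 8.68, 12.5, 8.73 and 13.3 CPM in the controls, and 11.0, 1.88, 2.95 and 12.6 CPM in M893, M901, M902 and M909. M893 and M909 thus lay within the control range, and M901 and M902 averaged 21.7% of the mean of the other 6 mice. The log2 fold change was -0.60 (SE 0.52, adjusted p = 0.644 by edgeR) and 0.12 without both mice. Its partner chain Col1a1 differed less, with 2.67 to 4.50 CPM in controls and 3.67, 2.37, 2.84 and 3.66 CPM in the Rbfox2-/- mice. The ratio of Col1a2 to Col1a1 per length was 2.30 to 4.56 in controls, 2.74 and 3.15 in M893 and M909, and 0.727 and 0.948 in M901 and M902.

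Col3a1, the fibrillar collagen of vessel walls and loose connective tissue, and Col5a2, a chain of type V that starts fibrils, are convergent neighbours on chromosome 1 whose ends lie 24.6 kb apart. Both were under 2 CPM in every mouse. Col5a2 had 0.764, 1.41, 1.26 and 1.77 CPM in the controls and 0.722, 0.970, 0.826 and 0.959 CPM in the Rbfox2-/- mice, so the 4 Rbfox2-/- values were close together and overlapped the lowest control. Its log2 fold change was -0.58 (SE 0.24, unadjusted p = 0.033, adjusted p = 0.342 by edgeR), and without M901 and M902 it was -0.63, with an interval from -1.37 to 0.10. For Col3a1 it was -0.72 (SE 0.42, adjusted p = 0.485 by edgeR), -0.25 without M901 and M902 and -0.32 without the control M898, with levels from 0.350 to 0.999 CPM in controls and 0.494, 0.275, 0.151 and 0.474 CPM in the Rbfox2-/- mice.

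Among the genes of collagen types II and XI, the highest mouse exceeded the lowest 1.61 times for Col2a1, 1.67 times for Col11a2 and 1.87 times for Col11a1. The median over the collagen genes was 1.81. Col2a1 had 79.7 to 104 CPM in controls and 64.7 to 90.3 CPM in Rbfox2-/- mice (log2 fold change -0.11, SE 0.11), M901 being the lowest. Col11a1 per length was 0.152 to 0.159 of Col2a1 in controls, 0.157 and 0.156 in M893 and M909, and 0.137 and 0.139 in M901 and M902. Col11a2 had a log2 fold change of 0.02 (SE 0.16) and Col27a1, a fibrillar collagen of cartilage, 0.13 (SE 0.15). Col5a1 lay at -0.23 (SE 0.16), or -0.04 without M901 and M902, and Col5a3 at 0.17 (SE 0.12). Adjusted p-values of Col2a1, Col11a2, Col27a1, Col5a1 and Col5a3 by edgeR ran from 0.566 for Col5a3 to 0.963 for Col11a2.

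Of the basement membrane genes, Col4a6 had the lowest log2 fold change, -0.84 (SE 0.34, unadjusted p = 0.034, adjusted p = 0.344 by edgeR). It had 6.58, 12.7, 7.99 and 14.3 CPM in the controls and 8.85, 3.12, 4.05 and 7.18 CPM in the Rbfox2-/- mice M893, M901, M902 and M909. M893 and M909 fell within the control range and M901 and M902 below it, and without these 2 mice the value was -0.38 (interval -1.05 to 0.30). Its head-to-head partner Col4a5, a chain altered in Alport syndrome, had 18.3, 27.8, 19.1 and 26.1 CPM in the controls and 20.01, 13.5, 17.6 and 19.6 CPM in the Rbfox2-/- mice. Here the log2 fold change was -0.37 (SE 0.16, unadjusted p = 0.044, adjusted p = 0.367 by edgeR) and -0.21 without M901 and M902. The partners did not keep their ratio: Col4a5 to Col4a6 per length was 1.93 to 2.92 in the controls, 2.38 and 2.87 in M893 and M909, and 4.56 and 4.57 in M901 and M902. Both genes lie on the X chromosome, and the mice with the high ratio are those with high Xist. Of ratios between genes on other chromosomes, Col1a2 to Col1a1, Col9a1 to Col9a3 and Col18a1 to Col15a1 left the control range in M901 and M902. Col11a1 to Col11a2 and Col11a1 to Col2a1 did so too. For Col9a1 to Col9a2 and Col6a1 to Col6a3, only M902 of these 2 mice left it. Col4a1 to Col4a2, Col4a3 to Col4a4, Col6a1 to Col6a2 and Col8a1 to Col8a2 stayed within it in both mice. A part of the X chromosome in the ratio of Col4a5 to Col4a6 was not tested.

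The other type IV pairs had smaller fitted differences. Col4a1 and Col4a2, whose products join in the type IV network common to most basement membranes, had 31.6 to 55.0 and 42.0 to 62.0 CPM in controls and 34.1 to 44.8 and 42.0 to 53.7 CPM in Rbfox2-/- mice. Their log2 fold changes were -0.08 (SE 0.15) and -0.05 (SE 0.12), with intervals of -0.42 to 0.26 and -0.31 to 0.20. Their ratio per length stayed between 0.731 and 0.861 in all 8 mice. Whether the shared first bases bear on this ratio was not tested. Col4a3, a chain of the network of kidney and some eye membranes, was at 0.19 (SE 0.18), and its partner Col4a4 at -0.14 (SE 0.17). Their ratio per length ran from 1.84 to 3.23 in controls and from 2.54 to 3.14 in Rbfox2-/- mice. Adjusted p-values of these 4 genes by edgeR were between 0.696 and 0.882.

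Col18a1 had 79.8, 133, 81.9 and 137 CPM in the controls, 117 and 121 CPM in M893 and M909, and 26.5 and 31.9 CPM in M901 and M902. The Rbfox2-/- mice thus fell into values within the control range and values far below it, at 26.2% of the mean of the other 6 mice. The fit gave a log2 fold change of -0.54 (SE 0.47, adjusted p = 0.656 by edgeR), which turned to 0.14 (interval -0.37 to 0.66) without M901 and M902. Col15a1, the related collagen of vessel and muscle basement membranes, had 4.71 to 7.55 CPM in controls and 4.73 to 5.56 CPM in Rbfox2-/- mice (-0.16, SE 0.14). The ratio of Col18a1 to Col15a1 per length was 11.9 to 25.5 in controls, 19.9 and 21.1 in M893 and M909, and 5.29 and 5.56 in M901 and M902. An exon of Col15a1 overlaps a gene on the opposite strand, as holds for exons of 10 of the 44 genes, and the strand setting of the counting is not given in the sources used here.

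**Figure D4:**
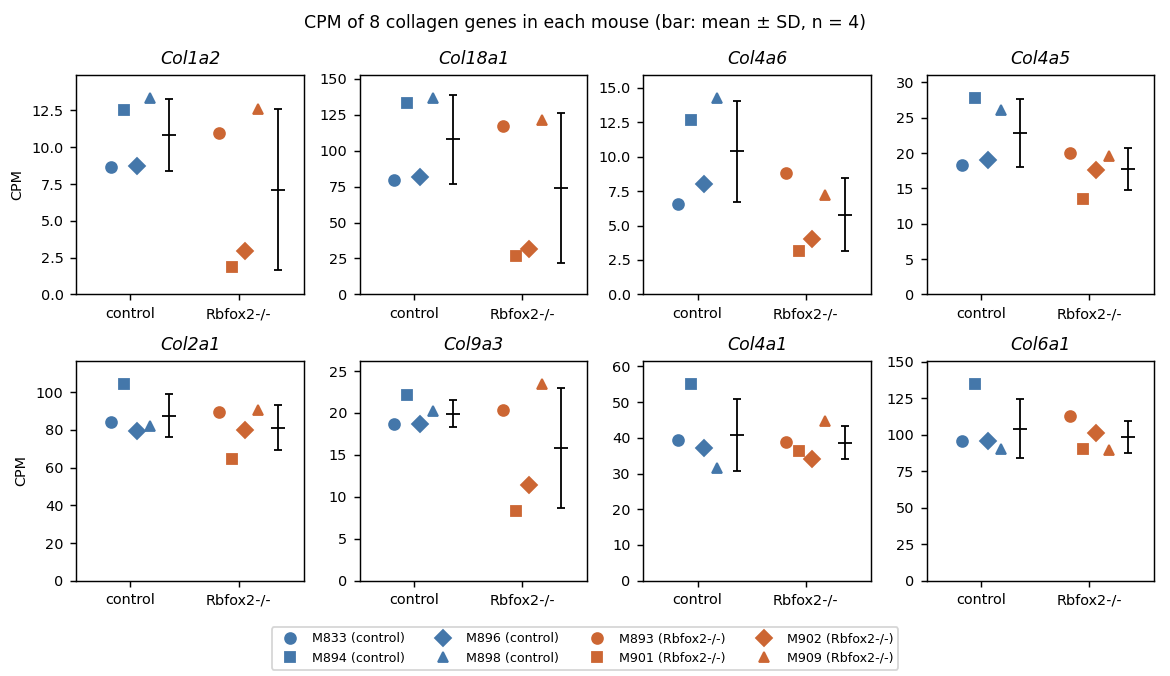
CPM of 8 collagen genes in each mouse, with 1 point per mouse and a bar for the group mean ± SD (n = 4), on axes that start at 0. For Col1a2, Col18a1 and Col9a3 the orange points of M901 and M902 lie far below those of M893 and M909, whereas for Col4a1 and Col6a1 the 4 Rbfox2-/- points stay together inside the control range or just under it.

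In the remaining classes, the 3 type IX genes, whose products coat type II fibrils, were each lowest in M901. Col9a1 had 58.0, 75.5, 56.6 and 60.9 CPM in the controls and 58.0, 32.1, 54.6 and 66.8 CPM in M893, M901, M902 and M909 (log2 fold change -0.25, SE 0.19, and -0.01 without M901 and M902). Col9a2 had 25.5 to 31.5 CPM in controls and 30.1, 15.4, 19.8 and 27.1 CPM in the Rbfox2-/- mice. Col9a3 had 18.7 to 22.1 CPM in controls and 20.3, 8.26, 11.4 and 23.4 CPM. M902 was near the controls for Col9a1 and well below them for Col9a3, and Col9a1 to Col9a3 per length was 2.20 to 2.50 in controls and 2.84 and 3.51 in M901 and M902.

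The type VI genes of the common filament overlapped between the groups. Col6a1 had 95.7, 134, 96.0 and 90.3 CPM in the controls and 113, 90.1, 101 and 89.7 CPM in the Rbfox2-/- mice (log2 fold change -0.08, SE 0.12, interval -0.36 to 0.20). Col6a2 lay at -0.17 (SE 0.15). Col6a3, the third chain of the common type VI filament, lay at -0.27 (SE 0.15), with 0.740 to 0.943 CPM in controls and 0.649 to 0.823 CPM in Rbfox2-/- mice. Per length Col6a1 exceeded Col6a3 275 ± 48.7 times in controls and 317 ± 58.5 times in Rbfox2-/- mice (SD, n = 4). Adjusted p-values of the 3 genes by edgeR were between 0.454 and 0.821.

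The 4 transmembrane genes all had negative fitted values, from -0.20 to -0.10, and none passed the test. Col23a1 had 106 to 135 CPM in controls and 120, 90.7, 97.7 and 118 CPM in M893, M901, M902 and M909 (-0.20, SE 0.11, adjusted p = 0.440 by edgeR, and -0.04 without M901 and M902). Col14a1, which binds fibrils in skin and tendon, lay at -0.49 (SE 0.24) and Col10a1 at 0.54 (SE 0.29), both under 1 CPM in every mouse, with adjusted p of 0.420 and 0.443 by edgeR. The 4 short-chain and remaining genes were all positive, from 0.06 to 0.54, and did not pass either. Of these, Col8a1 and Col8a2, chains of the corneal Descemet membrane, were highest in M909, with 12.4 and 15.2 CPM, against 6.84 to 9.37 and 5.78 to 13.6 CPM in the controls. M909 was the highest mouse for 10 of the 44 genes, beside 14.9% of all genes tested, including Col19a1, a FACIT collagen made by some neurons, with 47.8 CPM against 17.5 to 32.0 CPM in the other 7 mice.

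The enzymes and chaperones that make collagen did not pass the test either. Of 31 genes tested of the 32 listed for collagen synthesis, folding and processing, 0 passed at a false discovery rate under 0.05, 20 had negative and 11 positive fitted values, and the median log2 fold change was -0.08. At an unadjusted p under 0.05, 4 of the 31 were lower, beside 6.87% of all genes tested, and 2 were higher, beside 6.42%. Bmp1, the protease that trims procollagen, had 21.8 to 25.2 CPM in controls and 16.5 to 21.5 CPM in Rbfox2-/- mice (-0.32, SE 0.08, adjusted p = 0.183 by edgeR), and the groups did not overlap, as for 7.03% of all genes tested. Without M901 and M902 its value was -0.22. Plod1, a lysyl hydroxylase, had 22.3 to 26.4 CPM in controls and 26.3 to 28.6 CPM in Rbfox2-/- mice (0.20, SE 0.06), and P4ha1, a prolyl hydroxylase subunit, 59.2 to 68.5 and 66.6 to 78.6 CPM (0.21, SE 0.06). Their adjusted p-values by edgeR were 0.226 and 0.228.

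Of the 10 collagen receptors in the table (of 11 listed), 0 passed at a false discovery rate under 0.05, 8 had negative fitted values, and the median log2 fold change was -0.12. At an unadjusted p under 0.05, 1 of the 10 was lower and 1 higher, beside 6.87% and 6.42% of all genes tested. Ddr2, the discoidin domain receptor for fibrillar collagens, had 7.09 to 14.6 CPM in controls and 8.05, 3.05, 3.47 and 7.90 CPM in M893, M901, M902 and M909. Its log2 fold change was -0.81 (SE 0.35, adjusted p = 0.368 by edgeR) and -0.31 without M901 and M902. Mrc2, which takes up collagen for breakdown, had 5.82 to 12.8 CPM in controls and 7.41, 1.93, 1.85 and 7.002 CPM (-0.92, SE 0.47, and -0.26 without both mice). Itga10, a collagen-binding integrin subunit, had 2.51 to 4.09 CPM in controls and 3.85 to 4.85 CPM in Rbfox2-/- mice (0.41, SE 0.16, adjusted p = 0.322 by edgeR).

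Markers of tissues around the retina differed among the same mice. The 7 fibroblast markers in the table summed to 86.4 to 182 CPM in controls and to 130 and 117 CPM in M893 and M909. In M901 and M902 they summed to 10.4 and 11.3 CPM, and 5 of the 7 lay below all other mice. Over all genes tested, 9.35% lay below the other 6 in both mice. Fbln1 and Fmod were the highest of the 7 markers in every mouse. Fbln1 had 2.52 and 2.09 CPM in M901 and M902, against 51.1 to 113 CPM in the other 6. Dcn differed less, at 1.54 and 1.52 CPM against 1.81 to 5.57 CPM. Lum and Aspn did not lie below all other mice in both. The 6 ciliary epithelium markers summed to 68.1 to 130 CPM in controls, 82.0 and 95.1 CPM in M893 and M909, and 46.1 and 49.0 CPM in M901 and M902, where 6 of 6 lay below all other mice, Best2 being at 0.150 and 0.208 CPM against 4.14 to 16.0 CPM. Pericyte and smooth muscle markers summed to 55.5 to 78.9 CPM in controls, 55.4 and 58.4 CPM in M893 and M909, and 46.9 and 42.6 CPM in M901 and M902 (6 of 8 below all other mice), whereas endothelial markers, at 44.1 to 56.8 CPM in controls and 37.7 to 47.6 CPM in Rbfox2-/- mice, did so for 0 of 6. The collagen genes named above as low in M901 and M902 were picked by their values in these mice. That they share these mice with the fibroblast and ciliary markers therefore follows in part from that choice. Whether genes and markers moved together among the other mice was not tested, nor was the part of these tissues in the collagen values.

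Pigment epithelium and melanocyte markers summed to 75.8 to 434 CPM in controls and 54.9 to 159 CPM in Rbfox2-/- mice, with Rpe65 at 9.85 to 20.01 and 7.45 to 20.1 CPM, and 4 of 10 lay below all other mice in M901 and M902. Surface epithelium markers stood at 70.2 CPM in M909, the mouse with high Col8a1 and Col8a2, against 2.02 to 7.55 CPM in the other 7, and 0 of 6 were low in M901 and M902. Lens markers were near 0, at 0.970 to 2.26 CPM in all mice (2 of 6 low in both), and oligodendrocyte markers were level at 48.1 to 52.6 CPM (0 of 3). Of the neuronal and Muller glia lists, 1 of 17 and 1 of 5 markers lay below all other mice in M901 and M902.

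**Figure D5:**
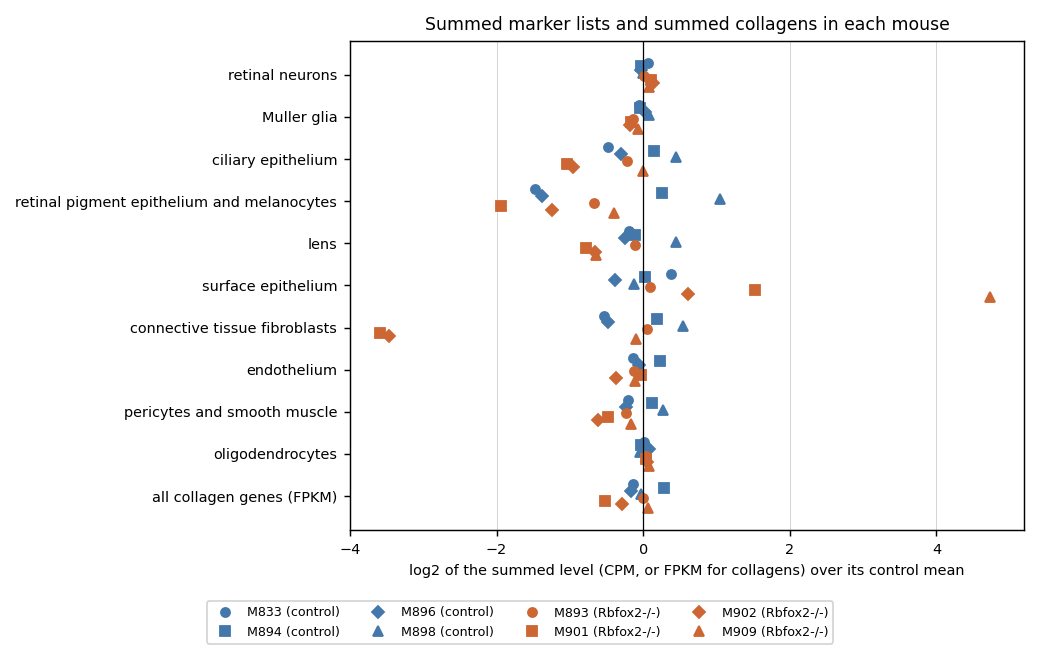
Summed level of 10 marker lists (CPM) and of the 44 collagen genes (FPKM) in each mouse, as log2 over the control mean of each, with controls in blue and Rbfox2-/- mice in orange. The squares and diamonds in orange (M901 and M902) lie far left for the fibroblast list, at 10.4 and 11.3 CPM, and left for ciliary epithelium and collagens, while neurons, Muller glia and oligodendrocytes stay near 0 in all mice.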

How the data were processed

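Poly(A)-selected RNA of 8 whole retinas was sequenced, 1 library per mouse. Per the study's methods, the authors aligned reads with STAR against mm10 and counted uniquely mapped fragments per gene with HTSeq, naming both a RefSeq and an Ensembl annotation. The submitters' processing notes name CASAVA 1.8.2 and edgeR. The deposited counts are not normalized, and the deposited FPKM values are these counts scaled by the length of the gene model and the library total. The table also holds the authors' normalized values (8 columns), fold changes, p-values and FDR, which were not used.

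Counts were filtered with filterByExpr, scaled by TMM and tested over the whole table with the quasi-likelihood test of edgeR 4.0.16 (R 4.3.3), without covariates. P-values were adjusted by the Benjamini-Hochberg method across all 16797 genes that passed the filter, at a threshold of 0.05. CPM values use TMM library sizes, intervals are 95% intervals, and every fold change is Rbfox2-/- over control on the log2 scale. Alternatives used DESeq2 1.42.0, edgeR's likelihood ratio test, limma-voom (limma 3.58.1), upper-quartile scaling, DESeq2 size factors, other filters, 1 surrogate variable (sva 3.50.0), and fits without single mice or without M901 and M902. On simulated counts with 200 of 16712 genes changed by a factor of 2, the test called 187 of them and 10 others. The changed genes were drawn from well-counted genes only, so genes with few counts, such as Col10a1, are not covered. The simulated mice also had no shared shift like that of M901 and M902, so this share called does not carry over to genes with that shift. Every pair of libraries differed beyond sampling noise. P-values measure the spread between mice.

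Named were the 4 collagen genes with the lowest p and the 3 with the highest control FPKM in each class, any gene at an adjusted p under 0.05, their neighbouring partners, and the 3 genes with the lowest p in each pathway list, 22 collagen genes in all. The members and all lists were chosen with earlier results of these data known. Gene positions are from GENCODE M21 (GRCm38), and the 40 genes with a chromosome in the deposited table lay on the same one.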

Additional observations from a re-analysis of the deposited data

Results flagged for a closer look

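In 46 groups of 4 mice (22 named collagen genes and Rbfox2, each group apart), 4 values lay far from the other 3 of their group by Dixon's test, where chance gives about 1 in 20 groups, or 2.3. Col11a2 had 23.2 CPM in the Rbfox2-/- mouse M901, against 31.7 to 32.4 CPM in the other Rbfox2-/- mice. Col4a4 had 39.1 CPM in the control M833, against 29.6 to 30.9 CPM in the other controls. Col5a3 had 7.24 CPM in the Rbfox2-/- mouse M909, against 5.26 to 5.47 CPM. Col6a1 had 134 CPM in the control M894, against 90.3 to 96.0 CPM. Groups in which 2 mice lie apart together, as M901 and M902 do for Col18a1, are not marked by this test.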

How the results depend on the processing

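The count of 0 collagen genes at a false discovery rate under 0.05 held under every alternative run. Over all genes the count was 11 by edgeR's quasi-likelihood test and 460 by DESeq2. It was 5 with 1 surrogate variable and 1 without M901 and M902, so 0 collagen genes says little under these settings. The 3 genes lower at an unadjusted p under 0.05 became 1 by limma-voom, 0 with 1 surrogate variable and 0 without M901 and M902. Without single mice the count was between 0 and 6. DESeq2 also gave 3, with Col23a1 in place of Col4a5. The 0 genes higher became 2 with 1 surrogate variable and between 0 and 2 without single mice. With 1 surrogate variable, Col18a1 turned to 0.36, Col23a1 to 0.030, Col2a1 to 0.062, Col4a1 to 0.038, Col4a2 to 0.048 and Col9a1 to 0.037 (log2 fold change), and the medians to 0.07 for fibrillar, -0.02 for basement membrane and 0.05 for other collagens. The surrogate variable had its highest values in M901 and M902. Without M901 and M902, Col18a1 turned to 0.14, Col2a1 to 0.036, Col4a1 to 0.036 and Col4a2 to 0.047. Without single mice, Col11a2 ranged from -0.074 to 0.19, Col4a1 from -0.19 to 0.097, Col4a2 from -0.13 to 0.069 and Col6a1 from -0.15 to 0.067, with a change of sign in each, and the class medians kept their sign (fibrillar -0.22 to -0.02, basement membrane -0.25 to -0.09, other -0.16 to -0.04). The median of the 6 type IV genes alone was -0.11. Of 198 comparisons of a named collagen gene with an alternative that keeps every mouse or leaves out M901 and M902 together, 188 kept direction and call, 10 changed sign and 0 passed the threshold. Rbfox2 stayed between -1.43 and -1.38 without single mice. No paired analysis was possible because the mice carry individual names that the groups do not share. With 4 mice a group, the spread between mice and not counting limits these values.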
